A study of Mus musculus with 34 samples.

Results

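The nuclear-encoded subunits of the mitochondrial respiratory chain were followed through preimplantation development of the mouse. Genes were taken by symbol (the Nduf, Sdh, Uqcr, Cox4 to Cox8 and Atp5 series, with symbols for pseudogenes left out). The rule found 83 genes, of which 82 were among the 49686 symbols listed for zygotes and late 2-cell embryos and 81 among the 51734 listed for blastocysts. Of these, 80 were listed at all 3 stages. Complex I had 37 members, complex II 4, complex III 8, complex IV 16 and complex V 18. Cox6c2 and Atp5mpl were listed only for the early stages and Atp5sl only for blastocysts. The rule does not match Cox4i1, a subunit of complex IV. It places Ndufa4 in complex I by its name, although this protein is now usually counted with complex IV. Atp5s and Atp5sl are likewise counted in complex V by name alone, and RefSeq lists them as Dmac2l and Dmac2.

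Each library was made from the RNA of 1 embryo. Zygotes were injected with mRNA encoding either wild-type CHK1 (WT), the kinase of the DNA damage checkpoint, or its R442Q mutant, so every embryo carried injected CHK1 mRNA beside its own genes. There were 5 WT and 6 R442Q zygotes and 4 WT and 5 R442Q late 2-cell embryos. The 7 WT and 7 R442Q blastocysts had all been cultured with a CHK1 inhibitor at 30 nM, so no blastocyst here was free of the inhibitor. The comparisons asked how the mutant mRNA changed the members' RNA at each stage, and how the members changed from zygote to late 2-cell. Because each library is a single embryo, p-values measure only the spread between these embryos.

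Complexes I to IV pass electrons from NADH and succinate to oxygen and pump protons across the inner mitochondrial membrane, except complex II, which pumps none. Complex V, the ATP synthase, uses the proton gradient to make ATP. The subunits listed here are made in the cytosol and imported. In every complex except complex II they are built together with subunits encoded in mitochondrial DNA. The oocyte hands its mitochondria and a store of RNA to the embryo. In the mouse much of that RNA is degraded by the late 2-cell stage, while the embryo's own genome becomes active.

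The zygote libraries held between 7183632 and 11296522 counts, the late 2-cell libraries between 5727956 and 8916343. Blastocysts had FPKM alone (fragments per kilobase of transcript, scaled to library size), and their depth is unknown. Oocyte markers (8 genes) summed to an FPKM of 5663 to 7707 in WT zygotes and 3694 to 5457 in R442Q zygotes, which did not overlap. In late 2-cell embryos they summed to 1248 to 3176 in WT and 1728 to 7059 in R442Q embryos. Markers of the 2-cell stage (6 of 7 found) summed to 104 to 1346 in WT and 679 to 2423 in R442Q late 2-cell embryos. Cumulus cell markers summed to at most 3.41 in zygotes and at most 21.8 in late 2-cell embryos. Trophectoderm markers, at 35.3 to 74.7 in the early embryos, summed to 1246 to 24283 in blastocysts. The part of these marker levels in the genotype results below was not tested.

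The members together took a larger share of the embryo's RNA at each later stage. In WT zygotes they held 0.945% ± 0.0477 (SD, n = 5) of the summed FPKM of all genes, in WT late 2-cell embryos 1.35% ± 0.148 (n = 4) and in WT blastocysts 5.54% ± 0.588 (n = 7). The WT embryos of the 3 stages did not overlap in this share. The median FPKM of the members was 25.9 in zygotes, 66.5 in late 2-cell embryos and 465 in blastocysts. Ranked among the 43349 symbols listed at all 3 stages, the median member stood at percentile 92.9, 95.8 and 99.1. At or above percentile 95 were 31, 46 and 75 of the 80 shared members. The blastocyst values come from a table normalised separately, with an inhibitor in the culture, so stage, table and inhibitor cannot be told apart and no test was made across it. In single-embryo libraries more cells of a type and more RNA per cell cannot be told apart either.

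The complexes did not follow the same course. Complex I held 0.240% ± 0.0217, 0.301% ± 0.0626 and 1.68% ± 0.172 of the summed FPKM in WT zygotes, late 2-cell embryos and blastocysts. Complex II, succinate dehydrogenase, went from 0.0369% ± 0.00164 to 0.00834% ± 0.00125 and then stood at 0.0845% ± 0.0163. Every late 2-cell embryo of either genotype was below every zygote in the share of complex II. Complex III held 0.0633% ± 0.00417, 0.129% ± 0.0331 and 0.778% ± 0.111. Complex IV held 0.409% ± 0.0293, 0.509% ± 0.0277 and 1.59% ± 0.227, and complex V 0.196% ± 0.00414, 0.400% ± 0.0418 and 1.41% ± 0.134.

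**Figure D1:**
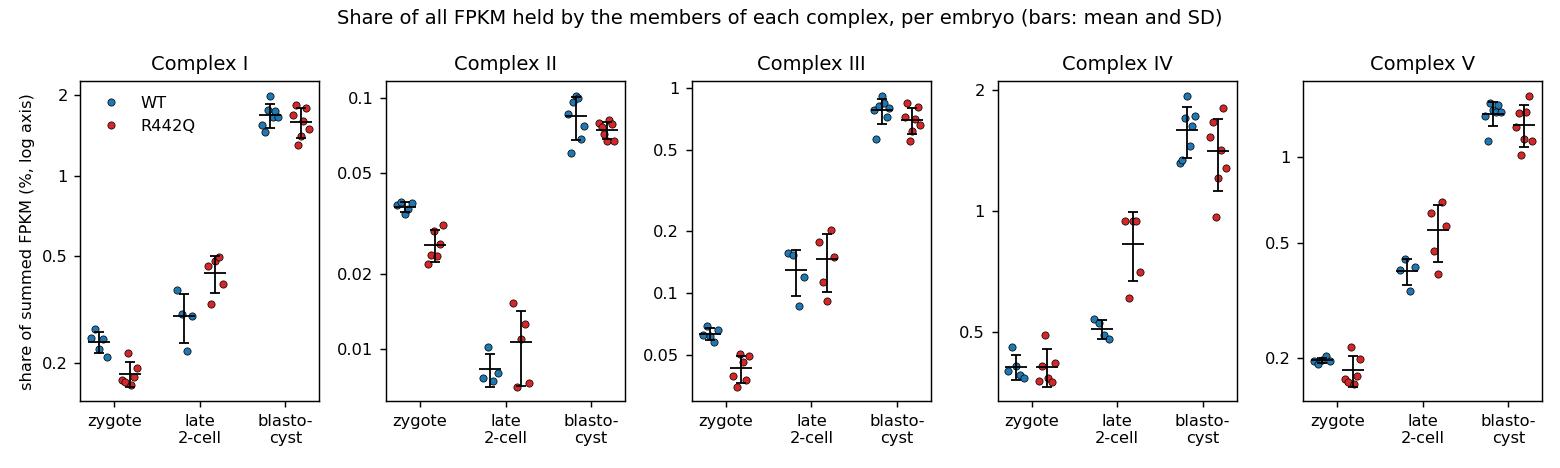
Share of the summed FPKM (%, log axis, own scale in each panel) held by the members of each complex, with 1 point per embryo and bars for mean and SD, blue for WT and red for R442Q. Complex II stood lower in late 2-cell embryos than at either other stage, and complex IV of all 5 R442Q late 2-cell embryos stood above all 4 WT embryos. In the other complexes the genotypes overlapped at the late 2-cell stage.

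Single members differed widely in level. By median FPKM the highest member was Cox8a, a small subunit of complex IV, in zygotes (916) and late 2-cell embryos (2072). In blastocysts it was Uqcr10, a small subunit of complex III, at 3021, with Cox8a next among the leaders of the complexes at 3004. Within complex I the highest were Ndufab1, the mitochondrial acyl carrier protein, in zygotes (320), Ndufa4 in late 2-cell embryos (318) and Ndufa7 in blastocysts (1285). Its lowest were Ndufb4 at 2.52 and 4.27 in the early stages and Ndufs1, which carries iron-sulfur clusters, at 59.6 in blastocysts. In complex III the highest at the zygote stage was Uqcrh at 103 and at the late 2-cell stage Uqcr10 at 456. The lowest there were Uqcrc1 at 0.640 in zygotes and Uqcrc2 at 26.0 and 213 at the later stages. In complex V Atp5b, the catalytic beta subunit, was highest throughout at 483, 936 and 2177. The lowest of complex V were Atp5s (1.19), Atp5g2 (6.39) and Atp5s again (22.7). Cox6c2 was listed at a median of 0 in the early stages, and Cox8b was at 0 in every embryo.

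Several subunits of complexes IV and V have alternative genes, and their balance differed between stages. Cox6b1 and Cox6b2 encode alternative forms of a subunit that faces the intermembrane space, Cox6b2 being best known from testis. Cox6b2 made up 80.9% ± 4.61 (SD, n = 5) of the pair's FPKM in WT zygotes, 74.6% ± 6.31 (n = 4) in WT late 2-cell embryos and 4.30% ± 0.978 (n = 7) in WT blastocysts. Cox6b1 was at an FPKM of 116, 110, 89.3, 113 and 58.6 in the 5 WT zygotes, at 202, 200, 162 and 201 in the 4 WT late 2-cell embryos, and at 1679 to 2903 with a median of 2575 in the 7 WT blastocysts. The 3 stages did not overlap for Cox6b1. Cox6b2 was at 370, 471, 486, 370 and 375 in WT zygotes, at 826, 489, 632 and 421 in WT late 2-cell embryos, and at a median of 96.7 and at most 166 in WT blastocysts. Its WT blastocysts were all below both early stages, which overlapped each other.

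Cox6a2, the heart and skeletal muscle form of another complex IV subunit, had its highest levels in zygotes. Its FPKM was 33.1, 43.0, 25.5, 22.3 and 33.1 in WT zygotes and 2.21, 3.75, 0.90 and 1.36 in WT late 2-cell embryos, and it was listed at 0 in 5 of 7 WT blastocysts. No late 2-cell or blastocyst WT embryo reached the zygotes. Its share of the pair with Cox6a1 was 19.8% ± 4.18 in WT zygotes and 0.997% ± 0.619 in WT late 2-cell embryos. Cox6a2 overlaps Itgad on the other strand, and since the use of strand in counting is not given in the sources used here, reads of the pair may have been mixed. Cox7a1, also known from muscle, made up 0.221% ± 0.205 of the pair with Cox7a2 in WT zygotes, 0.978% ± 1.06 in WT late 2-cell embryos and 9.72% ± 2.63 in WT blastocysts. Cox8a supplied at least 98.5% of the Cox8 group in every embryo, Cox8c at most 1.51%. Cox7b2 stayed below the filters at every stage.

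The c-ring of complex V is built from a single mature protein that is encoded by Atp5g1, Atp5g2 and Atp5g3 with different import peptides. In WT embryos Atp5g1 supplied 54.9% ± 5.83 of their summed FPKM in zygotes, 93.9% ± 1.66 in late 2-cell embryos and 76.6% ± 3.11 in blastocysts. Atp5g2 supplied 28.0% ± 6.95, 0.499% ± 0.438 and 6.72% ± 1.27, and Atp5g3 17.1% ± 5.87, 5.60% ± 1.99 and 16.7% ± 2.23. Atp5g2 shares 38.3% of its 50-base stretches with other genes and Atp5g1 10.2%, so the split between them depends on how such reads were assigned. R442Q embryos showed the same order at each stage on average, with Atp5g1 at 49.5%, 91.7% and 75.6%.

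**Figure D2:**
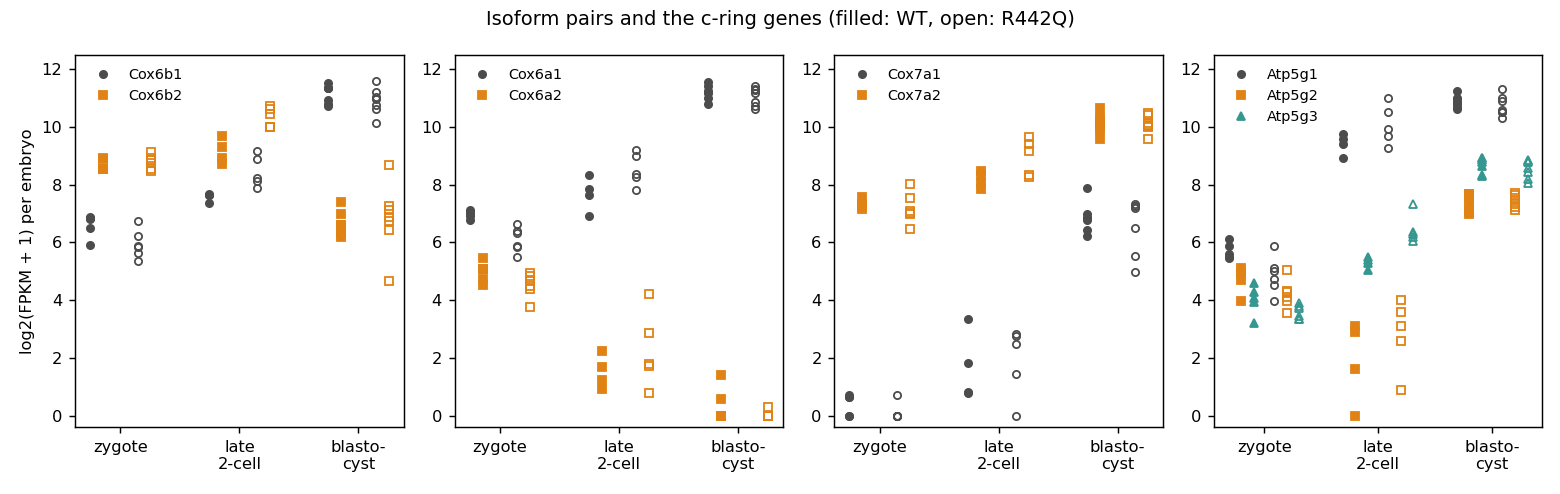
log2(FPKM + 1) of the alternative genes of 3 complex IV subunits and of the c-ring genes, 1 symbol per embryo, filled for WT and open for R442Q. The median of Cox6b1 in WT blastocysts was 2575 against 96.7 for Cox6b2, whereas Cox6b2 was above Cox6b1 in every zygote and late 2-cell embryo.

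From zygote to late 2-cell, most members changed in WT embryos, in both directions. Counts of both stages were fitted together with edgeR's quasi-likelihood test, with Benjamini-Hochberg adjustment over all 16199 genes tested and a threshold of 0.05. Of the 78 members tested, 39 rose and 17 fell in WT embryos. Over all genes tested, 61.2% changed: 36.2% rose and 25.0% fell. The median log2 change was 0.72 for the members and 0.34 for all genes. With a trend on length and GC of the genes taken out, it was 0.18 for the members and 0.24 for all genes, and 50 members were called, 45 of them among these 56. Each stage was deposited as a table of its own, so stage and any difference in the handling of the libraries cannot be told apart. Cox6c2, Cox7a1, Cox7b2 and Cox8b did not pass the filter on low counts. Uqcrc1, Atp5s and Cox8c passed only with the late 2-cell embryos, and Cox6a2 only with the zygotes, so these had to differ, and their changes are given as values only. Among the 74 members that passed the filter at both stages, 36 rose and 16 fell. Per complex, with all 78, 16 members of 37 rose and 8 fell in complex I, 6 of 8 rose and 1 fell in complex III, 7 of 12 rose and 4 fell in complex IV, and 10 of 17 rose and 1 fell in complex V. In complex II none rose and 3 of 4 fell. Among the rises were Uqcrc1 in complex III, Cox8c in complex IV and Atp5s in complex V, and among the falls Cox6a2 in complex IV. These 4 had to differ, and the counts per complex were not made without them.

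Uqcrc1 and Uqcrc2 are the core proteins of complex III. The FPKM of Uqcrc1 was 1.04, 0.51, 0.80, 0.32 and 0.95 in WT zygotes and 30.9, 24.0, 19.2 and 28.1 in WT late 2-cell embryos, a log2 change of 4.94. All 4 late 2-cell embryos were above all 5 zygotes, and the gene entered the test only through them. Uqcrc2, on chr7:120635176-120659524 (GRCm38, GENCODE), changed by -2.78 ± 0.28 (SE) with an adjusted p of 1.1e-08 (edgeR). The counts of Uqcrc2 scaled to library size (CPM) were 195, 236, 286, 212 and 238 in WT zygotes and 33.9, 35.5, 36.2 and 39.9 in WT late 2-cell embryos. The stages were far apart for this gene, which overlaps Pdzd9 on the other strand. Cox7c of complex IV was at an FPKM of 4.70, 17.9, 5.58, 5.83 and 6.97 in WT zygotes and at 109, 245, 95.7 and 189 in WT late 2-cell embryos, a log2 change of 4.21 ± 0.47 with an adjusted p of 6.8e-08. Here too the stages did not overlap, and 22.1% of the 50-base stretches of Cox7c occur in other genes.

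The other large rises in WT embryos, among members that passed at both stages, were Ndufc1 (log2 change 4.36) and Ndufb10 (4.34), both supernumerary subunits of complex I, and Ndufs8 (3.58), a core subunit of complex I with iron-sulfur clusters. Ndufv3 of complex I rose by 3.15 on the log2 scale. Atp5s, which passed through the late 2-cell embryos alone, had a change of 3.16. Atp5o, which joins the head of the ATP synthase to its stalk, rose by 3.69. Of the 50-base stretches of its annotation entry, 89.8% occur in other entries. Another entry named Atp5o overlaps it, and how much of the sharing lies with that entry was not computed. The value of Atp5o is uncertain. Atp5g1 rose by 3.11 and Atp5g3 by 1.24, while Atp5g2 fell by 2.69. The largest falls among members that passed at both stages were Ndufa10 (-3.45), Sdha (-3.17), Ndufa8 (-3.06), Uqcrc2, Sdhc (-2.74), Atp5g2 and Sdhd (-1.81). Ndufa10 and Ndufa8 are supernumerary subunits of complex I. Cox6a2, which passed through the zygotes alone, had a change of -3.93.

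In complex II the flavoprotein Sdha was at an FPKM of 68.6, 67.1, 63.5, 69.6 and 87.9 in WT zygotes and at 15.4, 9.73, 12.1 and 6.15 in WT late 2-cell embryos. WT blastocysts were at 45.8 to 129 with a median of 73.7, so the late 2-cell embryos were the lowest of the 3 stages. The membrane anchors Sdhc and Sdhd fell with it. The iron-sulfur subunit Sdhb did not: it was at 12.3, 7.43, 7.25, 5.30 and 8.86 in WT zygotes and at 13.6, 13.5, 13.1 and 17.6 in WT late 2-cell embryos, a log2 change of 0.78 ± 0.38 with an adjusted p of 0.078 (edgeR). Its late 2-cell embryos were all above its zygotes, and its 7 WT blastocysts stood at 284 to 531.

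R442Q embryos shared every WT rise and part of the WT falls. Of the 78 members tested, 53 rose and 9 fell, against 35.3% and 29.8% of all genes tested (65.1% in all). The median log2 change was 1.58 for the members and 0.22 for all genes. Among the 74 members that passed the filter at both stages, 50 rose and 8 fell. Among these 74, all 36 that rose in WT embryos were among the 50 that rose in R442Q embryos. All 8 that fell in R442Q embryos were among the 16 that fell in WT embryos. The same overlap over all genes tested was not computed. The sign of the change was opposite in the genotypes for 14 members, none of them called in both. Among these were Cox6c (-0.70 in WT, called, and 0.37 in R442Q), Ndufa4 (-0.36 and 1.58) and Ndufc2 (-0.32 and 2.30). Under other settings some passed in both, down in WT and up in R442Q embryos: Cox6c and Ndufb3 with relative log expression, with DESeq2 and with limma on log2(FPKM + 1), Ndufa5 with DESeq2 and that limma fit, and Cox6c with the length and GC trend removed. Leaving out a single embryo did the same for Atp5j2, Atp5l, Cox6c, Ndufa4, Ndufb3 or Ndufs6, each in at least 1 case. The largest rises in R442Q embryos, among members that passed at both stages, were Cox7c (6.47), Ndufc1 (4.99), Ndufs8 (4.73) and Atp5g1 (4.40), and the largest falls Sdha (-3.39) and Ndufa10 (-2.68). Sdhb, at 0.78 in WT embryos, rose by 2.39 in R442Q embryos.

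**Figure D3:**
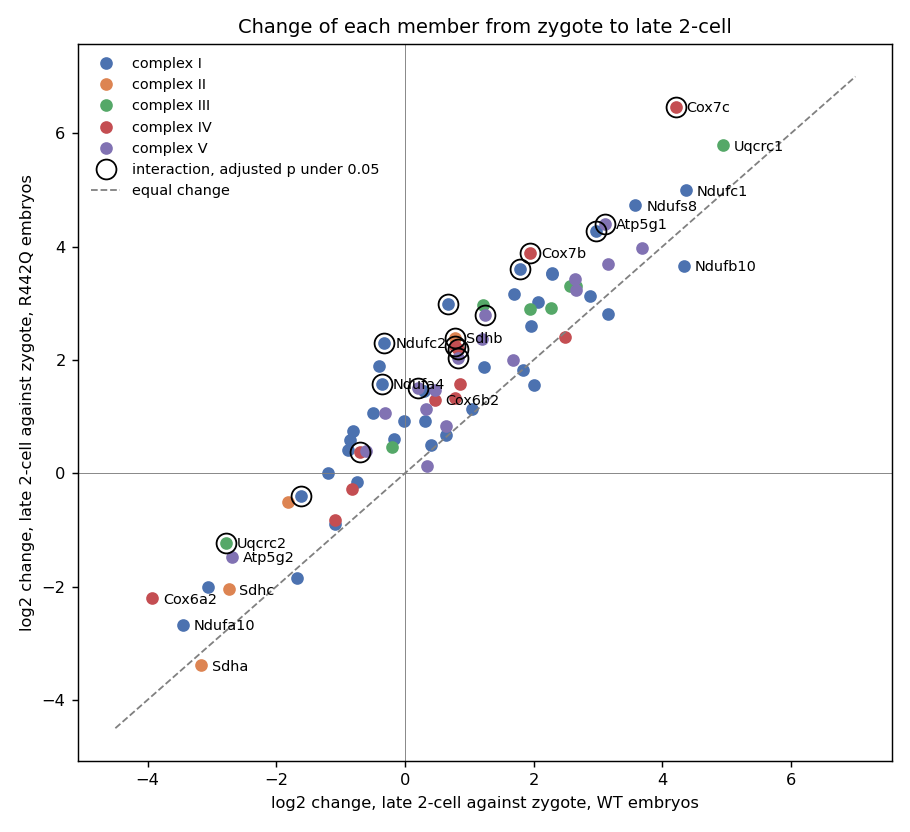
log2 change from zygote to late 2-cell of each of the 78 members tested, in WT embryos (x axis) and R442Q embryos (y axis), coloured by complex, with the dashed line for equal change and rings for the 17 members called in the interaction. All 17 ringed members lie above the line.

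Other genes of the pathway were read from lists of assembly factors, coenzyme Q synthesis, regulators and subunits outside the rule. Of 77 tested, 39 rose and 21 fell in WT embryos, and 41 rose and 16 fell in R442Q embryos, beside 36.2% and 25.0%, and 35.3% and 29.8%, of all genes tested. With each stage fitted alone, 71 of the list genes passed the filter in zygotes and 74 in late 2-cell embryos. For complex IV assembly factors these were 17 and 20. Genes that passed at a single stage had to differ and were not set apart, so the filter fixed part of the counts in this paragraph. Complex II assembly factors went down like its subunits, with 3 of 4 fallen in WT embryos: Sdhaf4 by -4.28, Sdhaf2 by -3.03 and Sdhaf3 by -1.74. For complex IV 13 of 20 assembly factors rose and 4 fell, among them Sco2 (4.94), Coa6 (4.10), Sco1 (3.88) and Coa7 (2.95), which rose, and Cox10 (-2.14), which fell. For complex III 3 of 6 assembly factors rose, among them Uqcc3 (8.72), and 2 fell, Lyrm7 (-2.97) and Uqcc1 (-1.14). For complex I 8 of 15 rose, among them Ndufaf1 (6.77), and 4 fell, among them Ndufaf4 (-2.05) and Ndufaf2 (-1.30). Of the subunits outside the rule Cox4i2 (3.59), Cox4i1 (2.05) and Cycs, cytochrome c (1.05), rose, and Ndufa4l2 (-4.57) and Cox7a2l (-1.45) fell. Uqcc3, Ndufaf1 and Cox4i2 had few counts in WT zygotes and Ndufa4l2 few or none in late 2-cell embryos, so the size of these changes depends on the fit. Of 10 regulators 5 rose in WT embryos, among them Gabpa (7.41) and Yy1 (3.98), and 3 fell, among them Tfb1m (-3.02), a mitochondrial methyltransferase. In R442Q embryos Gabpa rose by 5.87, and Nrf1 (-2.49) and Tfb1m (-2.38) fell. Gabpa overlaps Atp5j, a stalk subunit of complex V, on the other strand.

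Promoters were searched for the letters bound by 3 factors known from respiratory chain genes, on both strands of 250 bases before to 50 after each RefSeq start (GRCm38.p6). Of the members, 69 were found in that table, 3 of them under a newer symbol. The NRF1 letters (GCGCA, then any base N, then GCGC) occurred in 17 of 69 members (24.6%) and in 5.2% of all 27025 genes of the table. The GABPA letters CCGGAAG occurred in 16 (23.2%) against 9.9%, and the YY1 letters AAGATGGC in 11 (15.9%) against 3.2%. Of the 13 members in the table that fell in WT embryos, 6 held the NRF1 letters and 1 the GABPA letters. Of the 34 that rose, 7 held the NRF1 letters and 9 the GABPA letters. The 34 include Uqcrc1, with the NRF1 letters, and Atp5s, with none, which entered the test only through the late 2-cell embryos. A match is a description of letters, not a binding site.

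The stretches below lie upstream of the start and outside any exon of GENCODE M21. They are shown for the pair Cox6b1 and Cox6b2, for Cox6a1 and Ndufc2, whose genotype effect differed between stages, and for Atp5e, which differed between genotypes at the late 2-cell stage. Capitals mark the NRF1 letters in Cox6a1 and the GABPA letters, on the reverse strand, in Atp5e. The other 3 hold none of the 3 sets of letters in these stretches. The printed stretches are at chr7:30626152-30626264 (Cox6b1, minus strand), chr7:4753095-4753225 (Cox6b2, minus), chr5:115348982-115349108 (Cox6a1, minus), chr7:97399853-97400002 (Ndufc2, plus) and chr2:174464106-174464251 (Atp5e, minus), each written in the direction of its gene.
Cox6b1: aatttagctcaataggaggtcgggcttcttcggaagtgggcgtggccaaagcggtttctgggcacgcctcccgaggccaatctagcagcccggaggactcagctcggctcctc
Cox6b2: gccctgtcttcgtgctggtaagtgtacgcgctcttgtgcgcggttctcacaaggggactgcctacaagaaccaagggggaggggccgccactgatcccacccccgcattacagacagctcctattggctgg
Cox6a1: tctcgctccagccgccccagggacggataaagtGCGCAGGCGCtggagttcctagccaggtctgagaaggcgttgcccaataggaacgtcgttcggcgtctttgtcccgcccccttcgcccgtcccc
Ndufc2: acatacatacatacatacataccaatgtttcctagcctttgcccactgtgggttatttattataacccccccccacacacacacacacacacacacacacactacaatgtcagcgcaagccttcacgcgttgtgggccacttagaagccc
Atp5e: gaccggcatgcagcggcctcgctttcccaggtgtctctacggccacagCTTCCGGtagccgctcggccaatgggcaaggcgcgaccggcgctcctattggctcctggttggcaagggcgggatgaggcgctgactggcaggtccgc

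In zygotes, members were called between R442Q and WT embryos about as often as all genes, and most of their fold changes were below 0. Zygotes were fitted alone with edgeR's quasi-likelihood test, adjusted over 12420 genes. Of 75 members tested, 11 passed (14.7%), 3 higher and 8 lower, against 13.2% of all genes tested (6.30% higher, 6.92% lower). The members' median log2 fold change was -0.30, that of all genes 0.01, and 22 of 75 were above 0 against 50.6% of all genes. Atp5s, Cox6c2, Cox7a1, Cox7b2, Cox8b, Cox8c and Uqcrc1 did not pass the filter. When both early stages were fitted together, none of the 11 passed. Without R442Q zygote 3, whose share of counts in the members was the highest of its group, 19 passed.

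Uqcrc2 had the smallest adjusted p in zygotes. Its CPM was 195, 236, 286, 212 and 238 in WT zygotes and 101 to 151 with a median of 130 in R442Q zygotes, a log2 fold change of -0.82 ± 0.13 with an adjusted p of 7.3e-04 (edgeR). All R442Q zygotes were below all WT zygotes. The anchors of complex II followed: Sdhc was at 91.2, 117, 91.5, 115 and 106 in WT zygotes and at 55.3 to 83.0 in R442Q zygotes, and Sdhd at 54.7 to 83.3 against 32.5 to 51.1. Neither anchor overlapped between genotypes, with log2 fold changes of -0.61 (adjusted p = 0.0046, edgeR) and -0.68 (0.0074). Ndufs7, a core subunit of complex I with an iron-sulfur cluster, was at 6.26 to 7.53 in WT and 1.46 to 4.45 in R442Q zygotes (log2 fold change -1.30, adjusted p = 0.0096). Ndufc2, a supernumerary subunit of complex I, was at 8.85 to 15.5 against 2.31 to 8.74, at -1.21 and 0.011. Both sets were apart for each gene, in Ndufc2 by a small gap.

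Ndufb3 (-0.81), Cox6a1 (-0.70) and Ndufa8 (-0.54) were the other members lower in R442Q zygotes. Higher in R442Q zygotes were Ndufb6 (0.66), Cox8a (0.33) and Cox5a (0.33). Ndufa8 had 5 of 6 R442Q zygotes below all WT zygotes and Ndufb6 5 of 6 above. The calls of Cox5a, Cox8a, Ndufa8 and Ndufb6 were lost on leaving out 9, 7, 9 and 4 of the 11 zygotes in turn. Cox5a overlaps Gm26631 on the other strand. Outside the rule, 4 of 71 pathway genes were called, against 13.2% of all genes tested (6.92% lower). All 4 were lower: Sdhaf4 (-0.80), Surf1 (-0.71), Cox16 (-0.70) and Coq5 (-0.92).

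**Figure D4:**
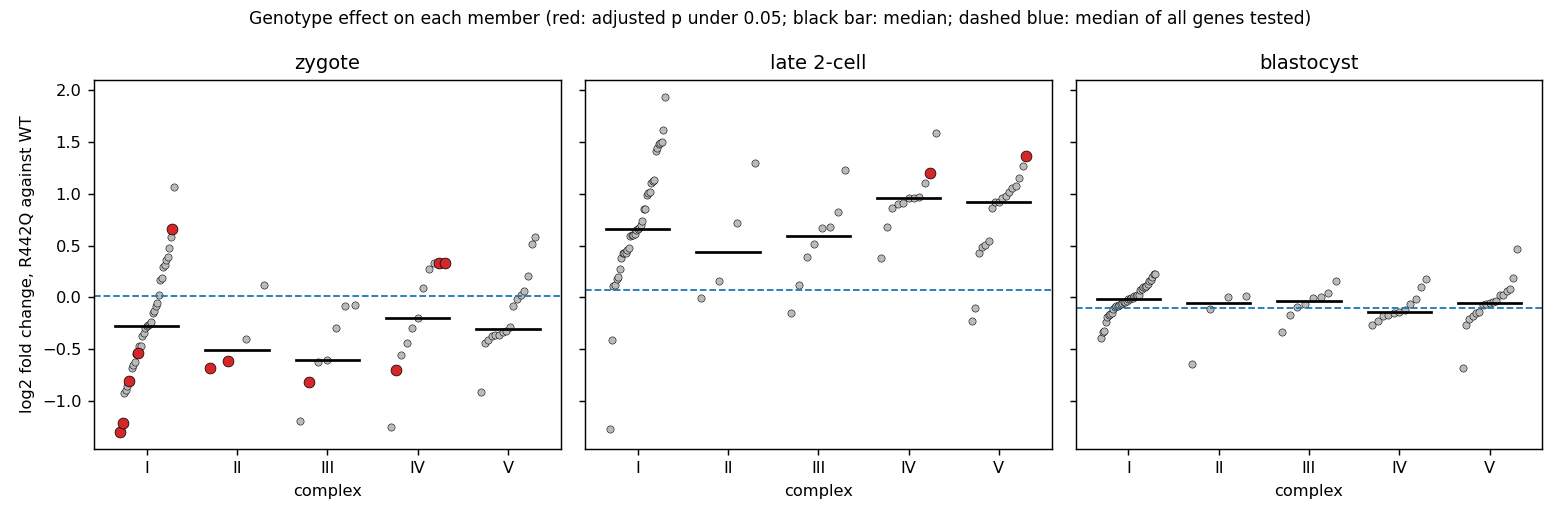
log2 fold change of R442Q against WT of each member tested, by complex, in zygotes, late 2-cell embryos and blastocysts, with red points for an adjusted p under 0.05, black bars for the median of the complex and a dashed blue line for the median of all genes tested. The medians of the 5 complexes lie below the line in zygotes and above it in late 2-cell embryos.

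At the late 2-cell stage the members of R442Q embryos stood higher as a body, while few passed the test alone. The members held 0.563%, 0.538%, 0.431% and 0.505% of the counts in the 4 WT embryos and 0.960%, 0.656%, 0.654%, 1.02% and 0.791% in the 5 R442Q embryos. All R442Q embryos were above all WT embryos. In summed FPKM the shares were 1.35% ± 0.148 (SD, n = 4) and 1.98% ± 0.331 (n = 5), again without overlap, and complex IV alone held 0.481% to 0.539% in WT against 0.947%, 0.609%, 0.946%, 0.947% and 0.706% in R442Q embryos. In the other complexes the shares of the genotypes overlapped. Complex I held 0.222% to 0.375% in WT and 0.332% to 0.498% in R442Q embryos, and complex V 0.342% to 0.442% and 0.392% to 0.696%. Complex III held 0.0865% to 0.157% and 0.0915% to 0.204%, and complex II 0.00748% to 0.0102% and 0.00709% to 0.0153%. The summed FPKM of all genes was itself 733250 ± 14091 in WT and 893448 ± 62796 in R442Q embryos. Of the 77 members tested, 71 (92.2%) had a log2 fold change above 0, against 52.7% of all genes tested. The median was 0.74 for the members and 0.07 for all genes, and by complex 0.66, 0.44, 0.59, 0.96 and 0.92 for I to V. The 7 core subunits of complex I had a median of 0.27 and its 30 supernumerary subunits 0.77. Cox6a2, Cox6c2, Cox7a1, Cox7b2 and Cox8b did not pass the filter.

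The members tested were short, with a median exon length of 1675 bases against 3990 for all genes tested. Over all genes the log2 fold change fell with length (Pearson r = -0.29 across genes, which are not independent replicates) and with GC content (r = -0.28). With that trend removed, the members' median was 0.43 and that of all genes 0.13, and no member passed.

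Atp5e and Cox6b2 passed the test, 2 of 77 members (2.60%) against 4.18% of all 13883 genes tested (1.22% higher, 2.95% lower). Atp5e, on chr2:174461072-174464105, encodes the epsilon subunit of the ATP synthase head. Its CPM was 44.1, 41.7, 29.0 and 30.3 in WT and 107, 61.3, 70.9, 93.8 and 136 in R442Q embryos, a log2 fold change of 1.37 ± 0.33 with an adjusted p of 0.034 (edgeR). Cox6b2, on chr7:4751792-4753094, was at 239, 153, 185 and 130 in WT and 477, 321, 426, 473 and 323 in R442Q embryos, a log2 fold change of 1.20 ± 0.29 with an adjusted p of 0.035 (edgeR). The genotypes did not overlap for either gene. The calls of Atp5e and Cox6b2 were lost on leaving out 7 and 6 of the 9 embryos in turn, and 11 members passed without R442Q embryo 3.

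In 13 of the 77 members (16.9%) every R442Q embryo was above every WT embryo, against 4.37% of all genes tested, and in none was every R442Q embryo below, against 7.61%. Complex I gave 4 of these (Ndufa5, Ndufb6, Ndufc2 and Ndufs6), complex II Sdhb, complex IV 4 (Cox6b2, Cox6c, Cox7b and Cox8a) and complex V 4 (Atp5e, Atp5f1, Atp5g3 and Atp5k). Cox8a, the highest member by median FPKM at this stage, was at a CPM of 558, 554, 588 and 495 in WT and 1377, 745, 1126, 1302 and 804 in R442Q embryos, with an adjusted p of 0.071. Sdhb was at 12.2 to 17.5 in WT and 21.0 to 40.7 in R442Q embryos, with an adjusted p of 0.072. Neither passed the threshold. The most positive fold changes belonged to Ndufs6 (1.94 ± 0.59, adjusted p = 0.077, edgeR) and Ndufa3 (1.62 ± 0.83, 0.283), and the most negative to Ndufv1 (-1.27 ± 0.69, 0.314), which binds NADH, and Ndufs5 (-0.41 ± 0.99, 0.859).

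**Figure D5:**
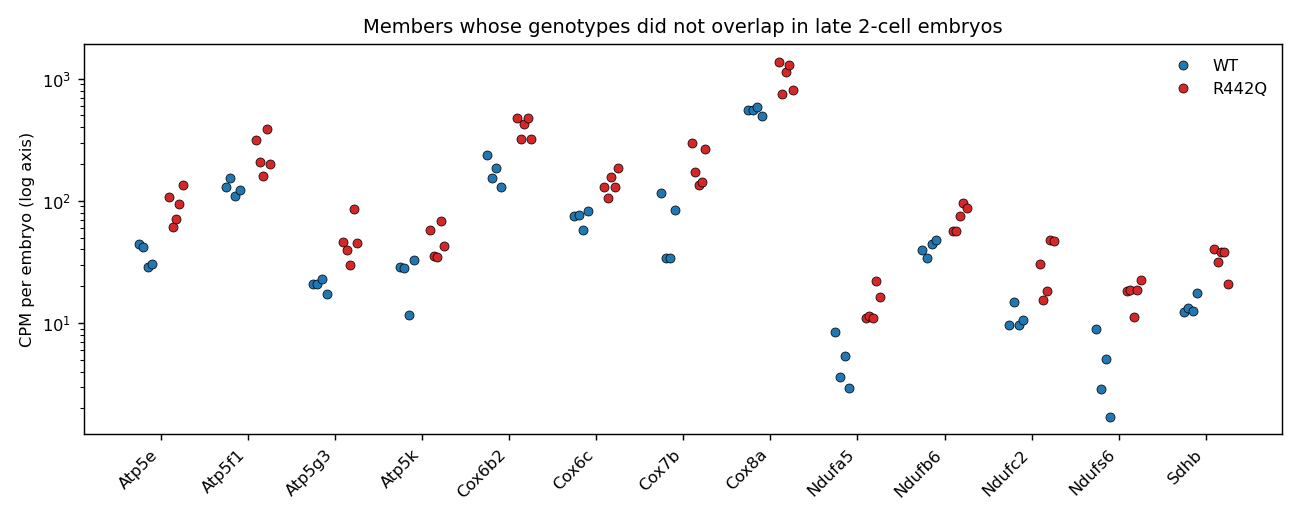
CPM per late 2-cell embryo (log axis) of the 13 members whose genotypes did not overlap, blue for the 4 WT and red for the 5 R442Q embryos. In each gene the lowest red point is above the highest blue point, by a narrow gap in Atp5f1, Atp5k and Ndufc2.

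Of 74 genes on the pathway lists, Ndufaf4, an assembly factor of complex I, was higher in R442Q late 2-cell embryos (1.30, adjusted p = 0.029, edgeR). Nrf1 (-1.68, 0.023), Pprc1 (-1.71, 0.012) and Polrmt (-2.66, 0.017) were lower. The first encodes the factor whose letters were searched above, Pprc1 a coactivator and Polrmt the RNA polymerase of mitochondria. Of the 74, 1 was called higher and 3 lower, beside 1.22% and 2.95% of all genes tested. The median of the 74 was 0.23.

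Between zygotes and late 2-cell embryos the genotype effect was unequal in 17 of 78 members (21.8%), all toward higher values at the late 2-cell stage, against 10.1% of all 16199 genes tested (3.07% higher, 7.05% lower). In each of the 17 the log2 fold change was below 0 in zygotes (only -0.02 for Atp5e) and above 0 in late 2-cell embryos. The 17 were picked by the difference of these 2 effects, so the signs are a description and no further support. The same count over all genes called was not made. Over the 78 members, 70 had an interaction above 0, against 45.1% of all genes. The median interaction was 0.95 for the members and -0.16 for all genes. With size factors from relative log expression in place of TMM scaling these were 1.11 and -0.01, so the scaling shifted all genes by more than 0.1, and 21 members passed. With the length and GC trend removed, with the replicate number as a block, or without WT late 2-cell embryo 4, 10 members passed, and without R442Q late 2-cell embryo 3, 31 passed.

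Ndufc2 had the largest interaction, at 2.62 on the log2 scale. Its CPM in late 2-cell embryos was 9.60, 14.9, 9.61 and 10.5 in WT and 30.4, 15.5, 18.3, 47.5 and 46.5 in R442Q embryos, after the lower values in R442Q zygotes given above. The order of the genotypes was opposite at the 2 stages, without overlap at either. Uqcrc2 (1.55) was lower in R442Q zygotes, and in late 2-cell embryos it was at 33.9, 35.5, 36.2 and 39.9 in WT and 108, 62.9, 35.5, 38.0 and 76.9 in R442Q embryos, where the genotypes overlapped. The others named by p were Cox7b (1.94), Ndufa2 (1.82), Atp5e (1.30), Atp5g1 (1.29), Ndufab1 (1.22), Cox7c (2.26), Ndufa4 (1.95) and Cox6c (1.07). Atp5g1, Cox6a1, Ndufab1, Ndufc2 and Uqcrc2 passed under all 26 alternatives tried. Of the pathway lists, 3 of 77 genes were called higher and 3 lower, beside 3.07% and 7.05% of all genes tested. The 3 lower were Nrf1 (-1.51), Pprc1 (-1.64) and Polrmt (-2.37).

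In blastocysts no member passed the test between genotypes. Of 77 members tested with limma on log2(FPKM + 1), none passed, against 0.00885% of all 11297 genes tested, which is 1 gene. None had an unadjusted p under 0.05 either, against 7.40% of all genes. The members' median log2 fold change was -0.04, that of all genes -0.10, and 27 of 77 were above 0 against 40.7% of all genes. They held 4.56% to 6.39% of the summed FPKM in WT and 3.90% to 6.12% in R442Q blastocysts, which overlapped. The most positive fold changes were those of Atp5s (0.47 ± 0.68, adjusted p = 0.921, limma) and Ndufa4 (0.23 ± 0.21, 0.870), and the most negative those of Atp5sl (-0.68 ± 0.55, 0.848) and Sdha (-0.64 ± 0.37, 0.768). Cox6a2, Cox7b2, Cox8b and Cox8c were below the filter. No pathway gene of 76 was called. The 13 subunits encoded in mitochondrial DNA held 0.178% to 1.23% of the FPKM in WT and 0.106% to 4.28% in R442Q blastocysts.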

How the data were processed

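RNA of single mouse embryos was sequenced after SMART-seq2 amplification, per the labels' protocols. The deposited tables hold estimated counts for zygotes and late 2-cell embryos and FPKM, normalised by the authors, for all 3 stages. RSEM and mm10 are named, without a role, in the submitters' processing notes. The use of strand is not given in the sources used here. Counts were rounded and tested with edgeR 4.0.16 in R 4.3.3 (quasi-likelihood, TMM scaling, filterByExpr with a minimum count of 10), each early stage alone and both together for stage changes and the interaction. Blastocyst FPKM was tested with limma 3.58.1 on log2(FPKM + 1), with FPKM of at least 1 in at least 7 embryos. The p-values were adjusted by Benjamini-Hochberg over all genes tested at a threshold of 0.05, and the fits were tested on simulated data. DESeq2 1.42.0 was an alternative. CPM comes from the rounded counts. A log2 fold change is R442Q against WT. On the log2(FPKM + 1) scale the changes of low genes are understated. A gene at 0 has a floor of 3 counts (0.266 to 0.418 CPM in zygotes, 0.336 to 0.524 in late 2-cell embryos), which covers counting error only: amplified reads carry no molecular identifiers. Members matched GENCODE M21 in 82 cases, which gave positions and lengths. Of these, 13 share over 10% of their 50-base stretches with other entries, which for Atp5o may include an entry of the same name. A gene on the other strand overlaps 28 members. Members and lists were chosen with earlier results of these data known. Named were the called members (up to 12 by p), or the extremes where fewer than 4 passed, the 8 largest rises and falls in WT embryos, up to 10 interaction members by p, the highest and lowest of each complex, and the alternative subunit genes. The other genes mentioned were chosen after their values were seen.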

Additional observations from a re-analysis of the deposited data

Results flagged for a closer look

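In 40 combinations of a share and a group of embryos, an embryo far from the rest of its group was looked for. In 3 of the 40 an embryo was flagged, where chance gives about 1 in 20, so the count is near chance. The shares overlap and come from the same embryos, so the 40 checks are not independent. R442Q zygote 3 held 0.492% of the summed FPKM in complex IV, the highest of its 6. WT zygote 2 held 0.400% of its counts in the members, the highest of its 5. WT blastocyst 2 held 1.13% of the summed FPKM in complex V, the lowest of its 7.

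The genotype effect differed between zygotes and late 2-cell embryos, by the interaction test of edgeR, in 17 members. The differences (late 2-cell minus zygote, log2) in complex I were 2.62 for Ndufc2, 2.32 for Ndufa1, 1.95 for Ndufa4, 1.82 for Ndufa2, 1.31 for Ndufa9 and 1.22 for Ndufab1. Sdhb of complex II had 1.61 and Uqcrc2 of complex III 1.55. In complex IV they were 2.26 for Cox7c, 1.94 for Cox7b, 1.47 for Cox6a1, 1.38 for Cox6b1 and 1.07 for Cox6c. In complex V they were 1.55 for Atp5g3, 1.30 for Atp5e, 1.29 for Atp5g1 and 1.22 for Atp5f1.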

How the results depend on the processing

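Against 11 members called in zygotes, DESeq2 called 17 (all 11 among them), limma on log2(FPKM + 1) 21 (all lower, 8 of the 11 among them, Cox5a, Cox8a and Ndufb6 lost), both early stages fitted together 0, and leaving out each embryo 7 (without R442Q 1) to 19 (without R442Q 3). Against 2 called in late 2-cell embryos, DESeq2 called 18, limma 8 and both stages together 22, each with the 2 among them, the replicate block 0, the length and GC trend removed 0, and leaving out each embryo 0 to 11. Against 17 in the interaction, DESeq2 called 32 and limma 33, each with all 17 among them, the replicate block 10 (all among the 17), the trend removed 10 (9 among the 17), and leaving out each embryo 10 (without WT late 2-cell 4) to 31 (without R442Q late 2-cell 3). Without R442Q late 2-cell 5 it was 26. With the trend removed the median stage change of the members was 0.18 in WT embryos (all genes 0.24) and 1.06 in R442Q embryos (all genes 0.35), and Cox6a1 (-0.14) and Cox8a (-0.20) in WT and Ndufb6 (-0.07) in R442Q embryos changed sign. The cause was not tested. Leaving out each embryo, the fold change of Ndufs5 in late 2-cell embryos was -1.36 to 0.30 and that of Atp5s in blastocysts -0.17 to 0.76. By the replicate numbers of the sample titles, same-numbered deviations correlated from -0.17 to 0.21. The correlation exceeded 0.1 in 0 of 5 pairs of zygotes, 1 of 4 of late 2-cell embryos and 3 of 7 of blastocysts. In WT zygotes and part of the late 2-cell embryos these numbers differ from those of the deposited columns. Pairing by column numbers was not tested, and the replicate block used the title numbers. The replicate block called 9 members in zygotes, 0 in blastocysts, 52 in the WT and 57 in the R442Q stage change. Over the other settings the stage counts were 49 to 59 in WT and 57 to 70 in R442Q embryos. The blastocyst count was 0 under all 20 alternatives. FPKM of blastocysts comes without counts, so their depth limits what could be detected to an unknown degree.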
